A study of Homo sapiens with 6 samples.

Results

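The genes described here are those of the deposited count table whose symbol is ZSCAN, ZKSCAN or SCAND followed by a number and at most 1 letter. The rule found 23 of 18398 genes: 6 ZKSCAN genes, 15 ZSCAN genes and 2 SCAND genes. All 23 passed edgeR's filter on low counts. The lowest total count of a gene in the table, over the 6 libraries, was 21, and other genes of the family, such as ZSCAN4 and ZSCAN10, are not analysed here. The SCAN domain is a leucine-rich stretch through which these proteins pair with themselves and with each other. ZSCAN proteins join it to C2H2 zinc fingers, which bind DNA. ZKSCAN proteins also carry a KRAB domain, known from repressors that recruit the corepressor TRIM28, and POGK, derived from a pogo transposase, has a KRAB domain too. SCAND proteins have the SCAN domain without zinc fingers.

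RNA was sequenced from SUM159 cells, a human cell line established from triple-negative breast cancer. The groups were 3 libraries of stable cells overexpressing POGK, called POGK cells, and 3 libraries of cells with the pLVX vector alone, called control cells. Both carried the lentiviral vector and grew in the same medium with serum, insulin and hydrocortisone. Whether either line is 1 clone or a pool is not stated. The stated purpose was to find genes that POGK regulates.

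Total counts ran from 27645789 to 33689230 per library. Levels are given as CPM, counts scaled to 1 common library size after TMM adjustment, and called means an edgeR quasi-likelihood p below 0.05 after Benjamini-Hochberg adjustment over all 15889 genes tested. POGK itself had 743, 781 and 780 CPM in POGK cells, against 62.6, 77.3 and 66.9 CPM in control cells, or 11.1-fold more, and reads of the introduced copy cannot be separated from those of the cells' own gene. Of 6 genes listed as present in this line, VIM, CD44, FN1, ZEB1, AXL and EGFR, all were expressed. VIM stood at 3344 ± 30.2 CPM in POGK cells and 5960 ± 791 CPM in control cells (SD, n = 3 each here and below). Of these 6 genes 5 were called lower in POGK cells, VIM among them, and AXL was called higher. Over all genes tested 33.3% were called lower and 32.7% higher. ESR1 and EPCAM stayed at no more than 10 counts in any library. Of 5 markers of other cell types, PTPRC and PECAM1 were measured and the others were not analysed here. PTPRC averaged 1.66 CPM in POGK cells and 0.53 CPM in control cells and rose, PECAM1 averaged 3.97 CPM in POGK cells and 5.18 CPM in control cells and fell, and their part in the results below was not tested. The labels do not say that replicates were separate cultures, so the spread behind the p-values is that among these samples and may be technical. The control libraries spread more: over all genes tested, the median coefficient of variation was 4.44% in POGK cells and 13.5% in control cells, and over the 23 SCAN-named genes it was 5.01% and 11.6%. Control replicate 1 was the lowest control library for 13 of the 23 genes, or 56.5%, and for 38.5% of all genes tested. It was also the lowest for 65.4% of 26 other SCAN-domain genes and for 58.3% of 408 further genes named ZNF and a number.

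Of the 23 genes, 5 rose, 8 fell and 10 did not pass the test, so that 56.5% were called where 66.0% of all genes tested were. By direction, 21.7% rose and 34.8% fell, where 32.7% of all genes tested rose and 33.3% fell. Changes of at least 2-fold were found for ZSCAN32, which rose, and ZSCAN23, which fell, that is 8.70% of the genes where 22.3% of all genes tested were called at that size. The median log2 fold change was -0.05 and the median of its size was 0.37, against 0.00 and 0.52 over all genes tested. CPM did not overlap between POGK and control cells for 17 of the 23 genes, or 73.9%, and for 73.7% of all genes tested. POGK cells lay above for 8 of the 23 and below for 9, where 36.8% of all genes tested lay above and 36.8% below. These directions are relative to the TMM scale. With library size alone as the scale, the median of all genes lay at 0.19, and 6575 of all 15889 genes tested rose and 3925 fell. Of the SCAN-named genes, 8 then rose and 3 fell. Without POGK replicate 1, 2 or 3, or control replicate 1, the number of SCAN-named genes that rose was 3, 2, 3 and 3, and the number that fell was 7, 6, 6 and 10. Of 16206, 16200, 16310 and 16302 genes tested in those fits, 4482, 4400, 4433 and 5124 rose and 4661, 4567, 4608 and 5205 fell.

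**Figure D1:**
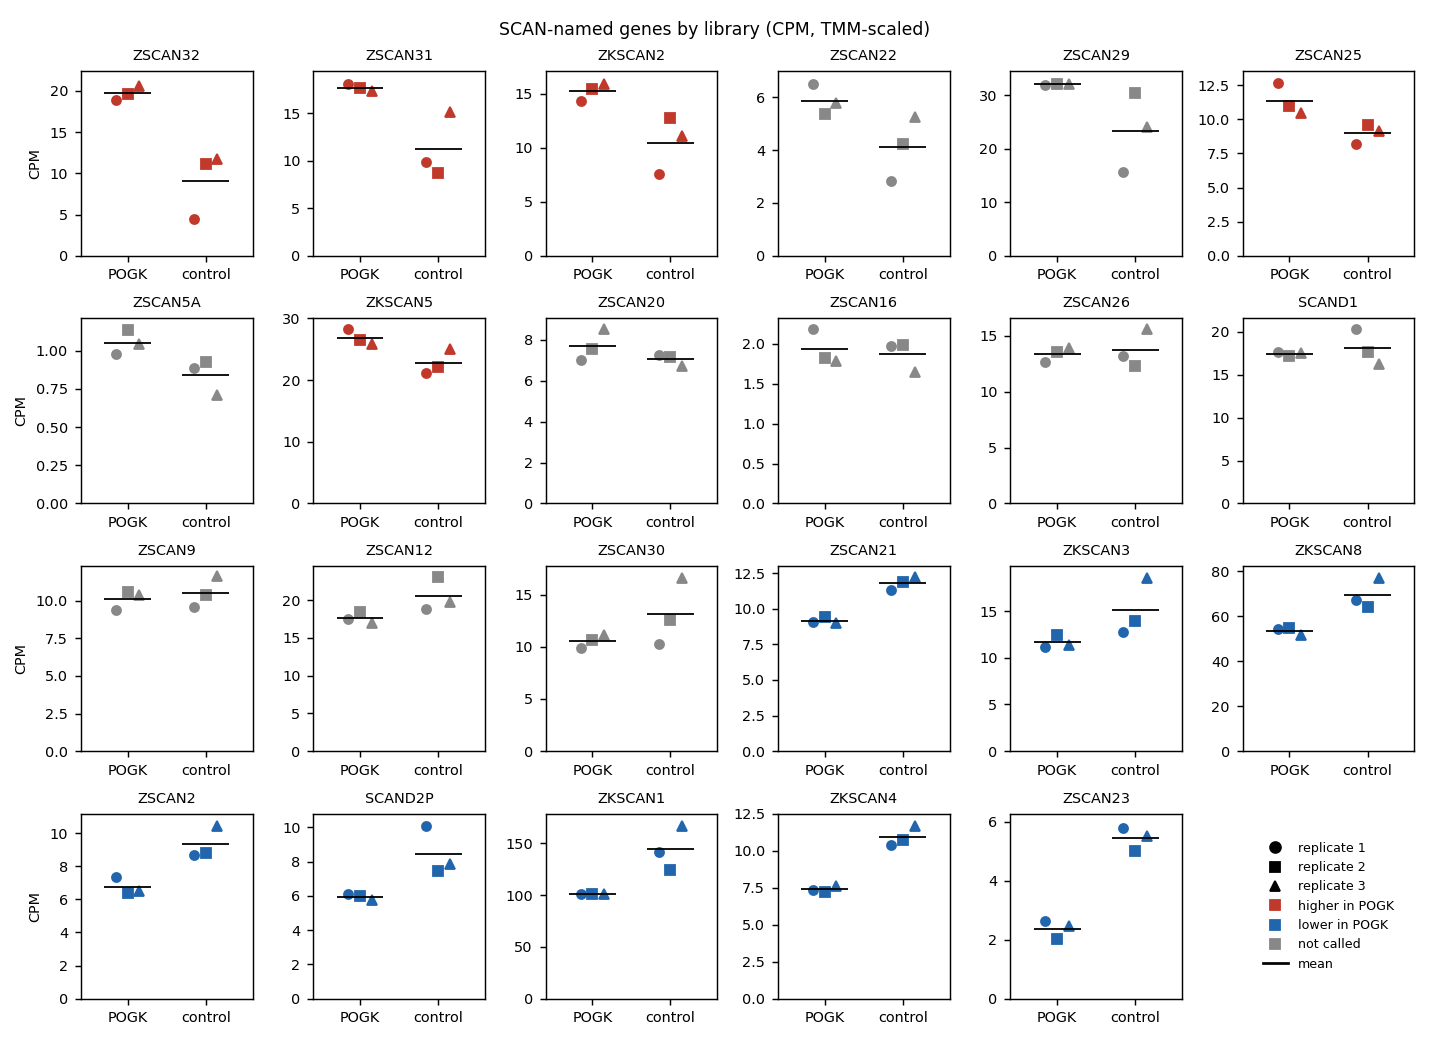
CPM of the 23 SCAN-named genes in each library, with POGK cells on the left and control cells on the right of each panel and the group mean as a line; each axis starts at 0 and has its own range. Points of POGK cells lie close together, and control replicate 1 is the lowest control for ZSCAN32, ZKSCAN2, ZSCAN22 and ZSCAN29.

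The start regions of 4 of these genes are shown because they hold the largest rise and the largest fall, and a pair of genes that face each other and moved in opposite directions. Each runs 5′ to 3′ on the gene's own strand from 250 bases before to 50 bases after the start in RefSeq (build GRCh38.p14), whose table matched 19 of the 23 genes. Capitals mark matches, on either strand, to 5 motifs searched: the GC box with the letters GGGCGG, the CCAAT box, the core of ETS factor sites with the letters CCGGAA, the TATA box with the letters TATAAA, and the core of the cyclic AMP response element with the letters TGACGT. The ZSCAN32 region is chr16:3400955-3401254 on the minus strand, that of ZSCAN23 is chr6:28443442-28443741 on the minus strand, that of ZSCAN31 is chr6:28356222-28356521 on the minus strand and that of ZKSCAN3 is chr6:28349697-28349996 on the plus strand.
ZSCAN32: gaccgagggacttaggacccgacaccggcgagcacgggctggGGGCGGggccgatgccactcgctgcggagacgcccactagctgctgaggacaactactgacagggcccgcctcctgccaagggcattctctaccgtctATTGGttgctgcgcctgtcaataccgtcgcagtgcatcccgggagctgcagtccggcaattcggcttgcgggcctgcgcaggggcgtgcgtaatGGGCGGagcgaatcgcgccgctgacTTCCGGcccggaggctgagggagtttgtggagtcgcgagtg
ZSCAN23: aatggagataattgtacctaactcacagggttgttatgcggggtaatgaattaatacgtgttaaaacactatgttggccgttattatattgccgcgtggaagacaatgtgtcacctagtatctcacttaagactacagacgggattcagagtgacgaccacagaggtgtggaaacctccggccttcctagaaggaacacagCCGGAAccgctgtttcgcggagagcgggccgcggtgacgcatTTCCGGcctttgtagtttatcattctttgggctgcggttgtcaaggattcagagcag
ZSCAN31: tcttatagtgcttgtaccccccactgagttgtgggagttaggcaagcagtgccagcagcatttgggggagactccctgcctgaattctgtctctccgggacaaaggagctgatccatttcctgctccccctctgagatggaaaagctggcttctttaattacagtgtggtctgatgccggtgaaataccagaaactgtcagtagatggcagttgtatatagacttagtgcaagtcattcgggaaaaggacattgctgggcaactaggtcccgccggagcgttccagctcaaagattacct
ZKSCAN3: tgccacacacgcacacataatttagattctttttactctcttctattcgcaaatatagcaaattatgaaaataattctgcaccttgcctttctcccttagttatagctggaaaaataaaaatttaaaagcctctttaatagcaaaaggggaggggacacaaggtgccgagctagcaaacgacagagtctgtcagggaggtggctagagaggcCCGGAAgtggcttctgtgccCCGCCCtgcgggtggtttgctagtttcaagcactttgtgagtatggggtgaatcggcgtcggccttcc

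Among the 19 regions, 15 held CCGGAA, or 78.9%, where 28.7% of the 11070 such regions of tested genes and 17.6% of all 27305 regions in the table held it. None held TATAAA, which 6.06% of the regions of tested genes held. GGGCGG was found in 57.9% of the SCAN-named regions and in 68.5% of those of tested genes, CCAAT in 26.3% and 37.0%, and TGACGT in 15.8% and 11.5%. Their median GC content was 63.7%, against 65.0% for tested genes. Of the 15 genes with CCGGAA, 3 rose, 5 fell and the other ones did not pass. Over all genes tested 32.7% rose and 33.3% fell, so nothing about the motif is read from these counts. The 4 regions without CCGGAA were those of SCAND1, ZKSCAN4, ZSCAN2 and ZSCAN31. For SCAND1 and ZKSCAN4 the RefSeq start lies kilobases away from the start end of the gene in GENCODE, and other starts were not searched. SCAND2P, ZKSCAN2, ZSCAN16 and ZSCAN26 were not in the table of regions. A match is a description of the letters in this window and does not show binding.

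All 6 ZKSCAN genes were called, 4 lower and 2 higher, and none by as much as 2-fold, where 66.0% of all genes tested were called. Of the 15 ZSCAN genes, 3 rose, 3 fell and 9 did not pass; whether the subfamilies differ was not tested, and with 66.0% called over all genes nothing is read from the count of 6. ZKSCAN1 (ENSG00000106261; hg38 chromosome 7, 100015572 to 100041689, plus strand) had the highest level of the 23 genes per kilobase of annotated exon, at 9.80 CPM per kilobase in POGK cells and 14.0 in control cells. It had 101, 101 and 101 CPM in POGK cells, against 142, 124 and 167 CPM in control cells. Every POGK library was below every control library, and control replicate 3 was the highest. It fell by 0.51 on the log2 scale (SE 0.10; edgeR adjusted p = 0.00186). ZKSCAN1 is known as the host of an abundant circular RNA, and these counts per gene do not separate circular from linear forms.

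ZKSCAN4 (ENSG00000187626; chromosome 6, 28241697 to 28252269, minus strand) had 7.32, 7.24 and 7.62 CPM in POGK cells, against 10.4, 10.7 and 11.7 CPM in control cells. Both groups were tight and did not overlap, with a log2 fold change of -0.56 ± 0.11 (SE) at an edgeR adjusted p of 0.00136. ZKSCAN8 (ENSG00000198315; chromosome 6, 28141883 to 28159460, plus strand) had 54.4, 54.7 and 51.7 CPM in POGK cells, against 67.3, 64.3 and 77.2 CPM in control cells. No POGK library reached the lowest control. It fell by 0.38 on the log2 scale (SE 0.08; edgeR adjusted p = 0.0034), a call lost with library size alone, at -0.18.

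ZKSCAN3 (ENSG00000189298; chromosome 6, 28349947 to 28369172, plus strand), known as a repressor of genes of autophagy and lysosomes, had 11.2, 12.5 and 11.4 CPM in POGK cells, against 12.8, 13.9 and 18.5 CPM in control cells. The groups lay side by side without overlap, and control replicate 3 stood above the other controls. It fell with a log2 fold change of -0.37 (SE 0.15), just under the threshold at an edgeR adjusted p of 0.0481. Without control replicate 3 the value was -0.20 and the call was lost, and leaving out POGK replicate 1, 2 or 3 ended it too, at 0.143, 0.0791 and 0.134. It missed the threshold as well with limma-voom, with no filter on low counts and with library size alone, at 0.0521, 0.0524 and 0.366. In the authors' deposited table its adjusted p was 0.0749, and this was the 1 gene of the 13 that the authors' table did not call at the same threshold.

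Genes reported elsewhere as repressed by ZKSCAN3 are MAP1LC3B and WIPI2, both of autophagy, and those reported as activated are CCND2, of cyclin D2, VEGFA and ITGB4. MAP1LC3B fell to 94.9 ± 1.41 CPM in POGK cells, against 148 ± 15.5 CPM in control cells, at an edgeR adjusted p of 1.87e-04. WIPI2 had 85.0 ± 1.55 CPM in POGK cells and 76.0 ± 4.44 CPM in control cells and did not pass, the edgeR adjusted p being 0.0617, but was called without control replicate 3, at a log2 fold change of 0.20, and with library size alone, at 0.35. CCND2 had 5, 2 and 3 counts in the POGK libraries, against 121, 105 and 147 in the control libraries. VEGFA, of an angiogenic growth factor, fell to 181 ± 4.89 CPM in POGK cells, against 494 ± 49.1 CPM in control cells, and ITGB4, of an integrin chain, fell to 3.41 ± 0.27 CPM in POGK cells, against 34.5 ± 7.35 CPM in control cells. The edgeR adjusted p-values of these falls were 5.54e-06, 5.00e-06 and 3.38e-06. Thus 4 of the 5 genes fell, among them 1 of the 2 reported as repressed, where 33.3% of all genes tested fell and 66.0% were called; whether ZKSCAN3 has a part in this was not tested.

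ZKSCAN2 (ENSG00000155592; chromosome 16, 25236001 to 25257845, minus strand) had 14.3, 15.4 and 15.9 CPM in POGK cells, against 7.61, 12.7 and 11.1 CPM in control cells. The groups did not overlap, and control replicate 1 was well below the other controls. It rose 1.45-fold (log2 fold change 0.53, SE 0.17) at an edgeR adjusted p of 0.021. The call was lost without POGK replicate 2, POGK replicate 3 or control replicate 3, at adjusted p-values from 0.0523 to 0.0623. The noncoding gene ZKSCAN2-DT starts 107 bases from it on the other strand and rose as well, to 2.06 ± 0.21 CPM in POGK cells, against 1.30 ± 0.35 CPM in control cells, at an edgeR adjusted p of 0.028. Its call was lost without POGK replicate 2 or 3 or control replicate 1 or 2, at adjusted p-values from 0.0602 to 0.0835.

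ZKSCAN5 (ENSG00000196652; chromosome 7, 99504662 to 99534700, plus strand) had 28.2, 26.5 and 25.9 CPM in POGK cells, against 21.2, 22.2 and 25.0 CPM in control cells. The lowest POGK library lay just above control replicate 3. The rise was 1.18-fold, at an edgeR adjusted p of 0.0466. Leaving out any library other than control replicate 3 ended the call, at adjusted p-values from 0.0576 to 0.169, and DESeq2 gave 0.0516.

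ZSCAN32 (ENSG00000140987; chromosome 16, 3382081 to 3401065, minus strand) rose the most. Its counts were 677, 709 and 610 in the POGK libraries, against 110, 348 and 348 in the control libraries, which is 18.9, 19.6 and 20.6 CPM in POGK cells and 4.43, 11.1 and 11.7 CPM in control cells. The POGK libraries were alike, and control replicate 1 stood far below the other controls. The rise was 2.15-fold, with a log2 fold change of 1.10 (SE 0.29) at an edgeR adjusted p of 0.00925. Without control replicate 1 the log2 fold change was 0.79, at an adjusted p of 1.48e-04. Per kilobase of exon it ranked 5th of the 23 genes in POGK cells and 12th in control cells. ZNF174, another SCAN-domain gene, starts 150 bases away on the other strand, so that the printed ZSCAN32 region also covers its start. ZNF174, chosen after its values were seen, had 9.50, 10.1 and 9.58 CPM in POGK cells, against 8.01, 9.22 and 9.70 CPM in control cells. The groups overlapped and its log2 fold change of 0.12 (SE 0.11) did not pass, the edgeR adjusted p being 0.385; the difference between these neighbours was not tested.

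ZSCAN23 (ENSG00000187987; chromosome 6, 28431930 to 28443502, minus strand) fell the most. It had 94, 73 and 73 counts in the POGK libraries, against 144, 157 and 164 in the control libraries, which is 2.63, 2.02 and 2.46 CPM in POGK cells and 5.80, 5.01 and 5.52 CPM in control cells. All POGK libraries were well below all controls. The fall was 2.30-fold, with a log2 fold change of -1.20 (SE 0.15) at an edgeR adjusted p of 1.70e-04. Per kilobase of exon it ranked 22nd of the 23 genes in POGK cells and 16th in control cells.

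ZSCAN31 (ENSG00000235109; chromosome 6, 28324693 to 28356271, minus strand) had 18.1, 17.6 and 17.3 CPM in POGK cells, against 9.86, 8.75 and 15.2 CPM in control cells. The groups did not overlap, but control replicate 3 lay near the POGK libraries. It rose 1.57-fold (log2 fold change 0.65, SE 0.18) at an edgeR adjusted p of 0.0122, and the log2 fold change ran from 0.49 without control replicate 2 to 0.93 without control replicate 3. ZSCAN31 and ZKSCAN3 lie on opposite strands and overlap by 6.33 kilobases at their start ends, with no shared exon bases in the annotation. Their log2 fold changes were 0.65 for ZSCAN31, called higher, and -0.37 for ZKSCAN3, called lower. In control replicate 3 both genes had their highest control value.

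ZSCAN25 (ENSG00000197037; chromosome 7, 99616946 to 99632408, plus strand) had 12.7, 10.9 and 10.5 CPM in POGK cells, against 8.17, 9.61 and 9.13 CPM in control cells. POGK replicate 1 stood above the other POGK libraries, and all 3 lay above the controls. It rose 1.27-fold at an edgeR adjusted p of 0.0318, and lost the call without POGK replicate 1 or 2 or control replicate 1 or 3, at adjusted p-values from 0.059 to 0.15. ZSCAN21 (ENSG00000166529; chromosome 7, 100049774 to 100065040, plus strand), known as an activator of the alpha-synuclein gene, had 9.08, 9.45 and 8.97 CPM in POGK cells, against 11.4, 11.9 and 12.2 CPM in control cells. Its groups were tight and apart, with a log2 fold change of -0.37 (SE 0.10) at an edgeR adjusted p of 0.00921, and the call was lost without POGK replicate 3, at 0.0562, and with library size alone. On the other strand its exons share 880 bases, or 41.1% of their length, with ZNF3, whose own log2 fold change was 0.18 at an edgeR adjusted p of 0.141, and because the strand setting of the counting is not given such reads cannot be assigned here. In all, 14 of the 23 genes share exon bases with another annotated gene.

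ZSCAN2 (ENSG00000176371; chromosome 15, 84600986 to 84627796, plus strand) had 7.32, 6.39 and 6.51 CPM in POGK cells, against 8.69, 8.81 and 10.4 CPM in control cells. The groups did not overlap. It fell with a log2 fold change of -0.47 (SE 0.12) at an edgeR adjusted p of 0.00894, and missed the threshold at 0.0508 without POGK replicate 2. The pseudogene SCAND2P (ENSG00000176700; chromosome 15, 84631963 to 84642066, plus strand) begins 4.17 kilobases after it and had 6.12, 5.998 and 5.74 CPM in POGK cells, against 10.1, 7.47 and 7.85 CPM in control cells. It fell as well, by 0.50 on the log2 scale (SE 0.14; edgeR adjusted p = 0.0112). Both calls were lost with library size alone. The annotated exons of SCAND2P, 669 bases, lie wholly within those of a longer noncoding RNA on the same strand. On the other strand they share 49.8% of their length with WDR73, which averaged 20.6 CPM over both groups. The log2 fold change of WDR73 was 0.23 (edgeR adjusted p = 0.164). The reads of SCAND2P and its level per kilobase are therefore uncertain.

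The other 10 genes did not pass. SCAND1, a SCAN domain protein without zinc fingers that is known to pair with MZF1, had 17.6, 17.1 and 17.5 CPM in POGK cells, against 20.3, 17.7 and 16.2 CPM in control cells. Its exons share 39.9% of their length with CNBD2 on the other strand, which had a log2 fold change of -0.52 (edgeR adjusted p = 0.0296). The SCAND1 groups overlapped, with a log2 fold change of -0.05 (SE 0.10), or 0.15 with library size alone. MZF1 itself had 16.7 ± 0.86 CPM in POGK cells and 18.1 ± 1.04 CPM in control cells and did not pass either (edgeR adjusted p = 0.287); its log2 fold change was -0.12, and 0.07 with library size alone. ZSCAN26, ZSCAN9 and ZSCAN16 had log2 fold changes of -0.03, -0.06 and 0.05 with standard errors from 0.11 to 0.18, and with library size alone they stood at 0.16, 0.13 and 0.24. ZSCAN16 stood at -0.04 without POGK replicate 1 and at -0.03 without control replicate 3, ZSCAN9 at 0.01 without control replicate 3, and ZSCAN26 at 0.01 without POGK replicate 1 and 0.07 without control replicate 3, none of them called. ZSCAN20, ZSCAN12 and ZSCAN30 had 0.12, -0.22 and -0.32. ZSCAN12 was called lower without control replicate 1, at -0.28, and ZSCAN30 likewise, at -0.46; ZSCAN20 was called higher with library size alone, at 0.32.

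ZSCAN29 had 31.9, 32.1 and 32.2 CPM in POGK cells, against 15.6, 30.4 and 24.0 CPM in control cells. The POGK libraries agreed closely, every one above the highest control, while the controls were far apart, with replicate 1 lowest. Its log2 fold change of 0.45 (SE 0.20) did not pass (edgeR adjusted p = 0.0692). The gene was called without control replicate 2, at a log2 fold change of 0.69. Without control replicate 1 the value shrank to 0.24 and was not called. ZSCAN22 had 6.48, 5.36 and 5.77 CPM in POGK cells, against 2.82, 4.25 and 5.26 CPM in control cells. It too missed the threshold, at 0.0559 with a log2 fold change of 0.51, and was called without control replicate 3, at 0.72. Without control replicate 1 the log2 fold change of ZSCAN22 shrank to 0.31 and was not called. ZSCAN29 and ZSCAN22 were both called by DESeq2 and limma-voom. The authors' deposited table called neither at the same threshold, with adjusted p-values of 0.114 and 0.0653. ZSCAN5A was the least abundant of the 23 genes, with 21 to 41 counts per library, and its log2 fold change of 0.33 had a standard error of 0.22.

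**Figure D2:**
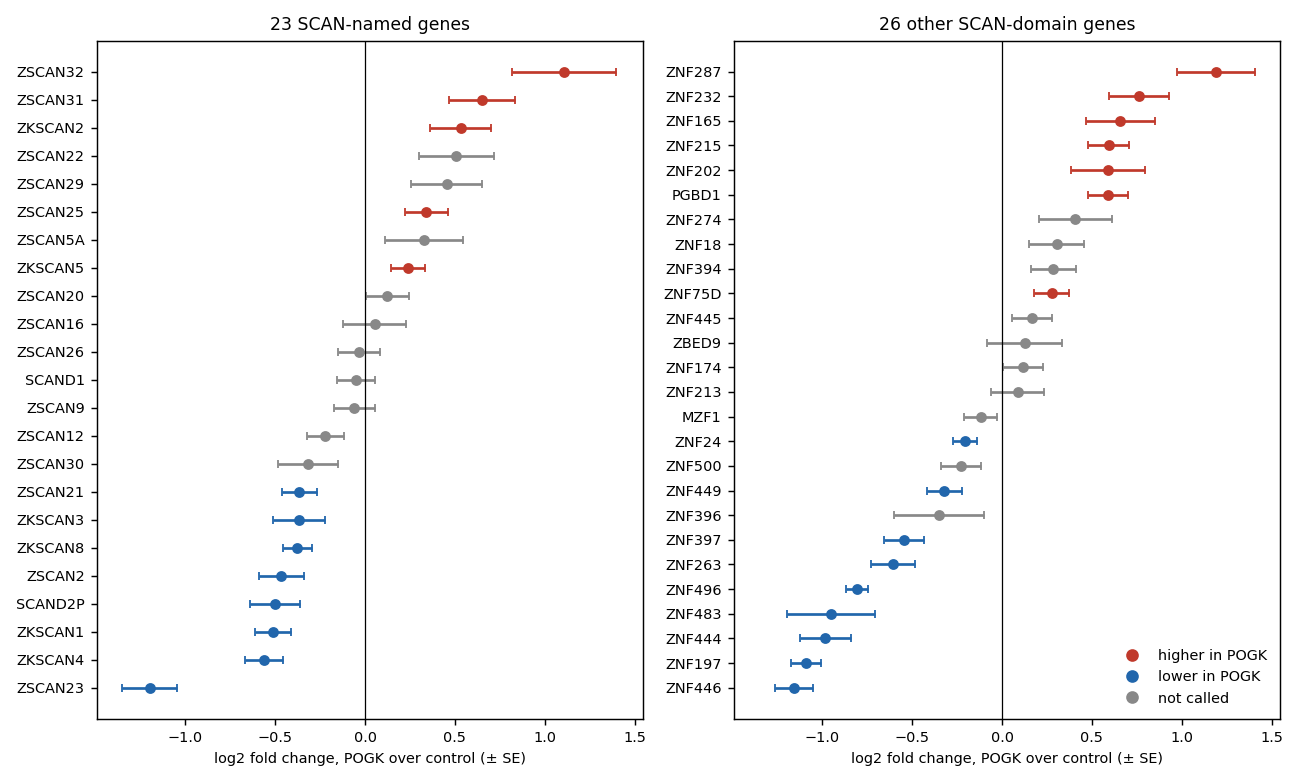
Log2 fold change of POGK over control cells with its standard error for the 23 SCAN-named genes and for 26 other genes of SCAN-domain proteins, sorted by value and coloured by the edgeR call. In both panels calls lie on both sides of 0, with ZSCAN32 at 1.10 and ZSCAN23 at -1.20 at the ends of the first.

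By position, 9 of the 23 genes form 1 cluster on chromosome 6, from 28107689 to 28443502, 4 lie on chromosome 7 and the other 10 are spread over 6 further chromosomes. Along the chromosome 6 cluster 1 gene rose, 4 fell and 4 did not pass, or 55.6% called, where 66.0% of all genes tested were called, 32.7% higher and 33.3% lower. ZSCAN9 and ZKSCAN4, for example, lie 8.21 kilobases apart and had log2 fold changes of -0.06 and -0.56. PGBD1, which joins a SCAN domain to a piggyBac-derived transposase, lies within the cluster and rose to 15.3 ± 0.0023 CPM in POGK cells, against 10.2 ± 1.17 CPM in control cells, at an edgeR adjusted p of 0.00142. Its POGK libraries held 548, 554 and 454 counts, and at such counts an SD of 0.0023 CPM is not read as precision. The antisense gene ZSCAN16-AS1, which shares 197 exon bases with ZSCAN16, fell to 4.50, 4.17 and 4.52 CPM in POGK cells, against 13.1, 9.06 and 11.1 CPM in control cells (log2 fold change -1.33, SE 0.15; edgeR adjusted p = 9.41e-05). ZSCAN16 had 2.18, 1.82 and 1.79 CPM in POGK cells and 1.97, 1.98 and 1.65 CPM in control cells. The 197 shared bases are 13.0% of the exon length of ZSCAN16, and without a known strand setting reads in these bases cannot be assigned. On chromosome 7 all 4 genes were called, where 66.0% of all genes tested were, 32.7% higher and 33.3% lower. ZKSCAN5 and ZSCAN25, 82.2 kilobases apart, were called higher. ZKSCAN1 and ZSCAN21, 8.08 kilobases apart, were called lower.

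**Figure D3:**
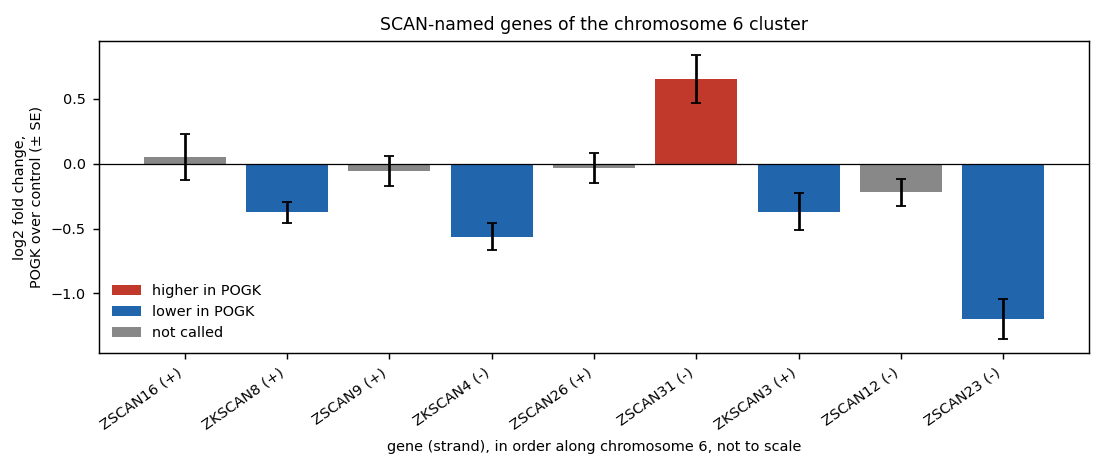
Log2 fold change of POGK over control cells (bars, with standard error) for the 9 SCAN-named genes of the chromosome 6 cluster, in their order along the chromosome and not to scale. ZSCAN31 is the 1 gene called higher, beside ZKSCAN3, which was called lower.

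Other genes that encode a SCAN domain but carry other names were also called in both directions. Of 26 measured, 7 rose, 9 fell and 10 did not pass, so that 61.5% were called, near the 66.0% over all genes tested, with a median log2 fold change of 0.10. With library size alone, 10 of them rose and 7 fell, where 6575 of all 15889 genes tested rose and 3925 fell. ZNF197, of a KRAB protein known to bind the VHL protein, had 15.3, 15.5 and 14.3 CPM in POGK cells, against 33.0, 31.0 and 32.2 CPM in control cells. ZNF496 fell to 59.3 ± 1.13 CPM in POGK cells, against 104 ± 3.01 CPM in control cells, and ZNF446 fell to 5.28 ± 0.17 CPM in POGK cells, against 11.8 ± 0.20 CPM in control cells. Their log2 fold changes were -1.09, -0.81 and -1.16, at edgeR adjusted p-values of 1.39e-05, 1.42e-05 and 2.71e-05. Of those that rose, ZNF287 had 4.50, 5.53 and 5.97 CPM in POGK cells, against 1.65, 2.27 and 3.03 CPM in control cells, and ZNF215 rose 1.51-fold, at edgeR adjusted p-values of 0.00123 and 0.00167. Without POGK replicate 3, 4 of the 26 genes rose, where 4433 of all 16310 genes tested rose. Among 408 tested genes named ZNF and a number outside this list, compared after the values were seen, 88 rose and 141 fell. These were 21.6% and 34.6%, where 32.7% of all genes tested rose and 33.3% fell. In total 56.1% of the 408 were called, with a median size of the log2 fold change of 0.46.

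Lists tied to SCAN genes of early embryos and stem cells, ZSCAN4 and ZSCAN10, held few measured genes. Of 11 cleavage-stage genes, 2 were measured. RFPL4A rose to 4.06 ± 0.12 CPM in POGK cells, against 2.68 ± 0.82 CPM in control cells, at an edgeR adjusted p of 0.026, and kept that call without control replicate 1, but lost it without any other single library, at 0.0582 to 0.0905. CCNA1, at a log2 fold change of -0.38, did not pass (edgeR adjusted p = 0.25). The pluripotency gene POU5F1 fell to 0.64 ± 0.11 CPM in POGK cells, against 1.47 ± 0.40 CPM in control cells, at an edgeR adjusted p of 0.00473. It has several processed pseudogenes, so its reads may be shared.

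**Figure D4:**
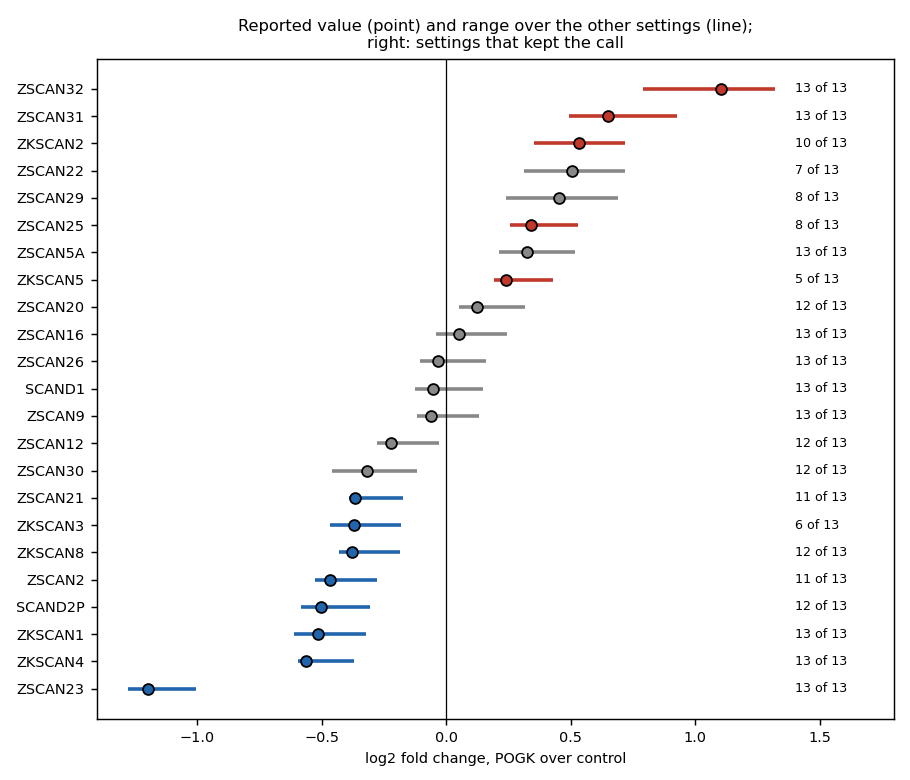
Log2 fold change of POGK over control cells for each of the 23 genes (point), its range over 13 other settings of the analysis (line), and how many of these settings kept the call. For a gene not called, the number is that of settings that left it uncalled. ZSCAN32, ZSCAN31, ZKSCAN1, ZKSCAN4 and ZSCAN23 kept their call under all 13, whereas ZKSCAN5 kept it under 5 and ZKSCAN3 under 6.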

How the data were processed

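RNA was depleted of ribosomal RNA and aligned to hg38, per the labels' protocols. Among the tools in the submitters' processing notes are featureCounts, STAR and Trimmomatic. Neither the gene models nor the strand option of the counting is given in the sources used here. The authors deposited raw read counts per Ensembl gene for 6 libraries, and 18398 genes were in the table. The authors also deposited a normalised signal per library and, per the file headers, results of their own comparison: log2 fold changes and standard errors, a score, p-values and adjusted p-values. Only their adjusted p-values are used, in sentences that name the authors' deposited table.

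The test was edgeR 4.0.16 (R 4.3.3), robust quasi-likelihood, TMM, default filter, on counts as deposited, with standard errors derived from F. Alternatives were DESeq2 1.42.0, limma-voom (limma 3.58.1), other scalings and filters, a block for replicate number, and leaving out each library. On simulated data for POGK against control with 15558 genes, 79 of 99 genes changed 2-fold and 95 of 98 changed 4-fold were recovered, with 16 false calls. The simulation gave both groups the same spread for a gene and changed few genes, unlike these data. Its false calls therefore do not measure those under the wider control spread. Positions and exon lengths came from GENCODE release 44 (hg38), which matched all 23 genes and 18264 of the 18398 identifiers. Chi-square values per gene between libraries of 1 group were 1.36 to 2.62 for POGK and 22.5 to 49.7 for control. The low POGK values do not show that the POGK libraries were separate cultures. All 6 libraries were nevertheless kept as separate samples. The control spread was pooled with the narrower POGK spread, and p-values assume equal spread.

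The genes and lists were chosen with earlier results of these data known. Named are all genes of the rule, POGK, MZF1, the 3 other SCAN-domain genes with the smallest adjusted p in each direction, and the listed targets, embryonic genes and partner transcripts.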

Additional observations from a re-analysis of the deposited data

How the results depend on the processing

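Of 299 values of the 23 genes under the alternatives, 256 stayed as in the reported test, whether called or not called. A call was lost in 29, gained in 14 and reversed in none. Of the 13 called genes, 5 kept the call under all 13 alternatives, and of the 10 genes not called, 5 stayed so under all. With library size alone, 8 SCAN-named genes were higher and 3 lower, where TMM gave 5 and 8, and their median log2 fold change was 0.15 in place of -0.05. That scale moves all genes by 0.19, and called genes then split 62.6% higher in place of 49.6%. Leaving out each library in turn gave 2 to 5 SCAN-named genes higher and 6 to 10 lower, and 4 to 9 other SCAN-domain genes higher. Same-numbered POGK and control libraries deviated together with correlations of 0.13, 0.06 and -0.0021, and not every library correlated best with its own number, so the numbers were not taken to pair them. With the replicate block, 5 SCAN-named genes were higher and 8 lower: ZKSCAN5 and ZSCAN25 missed the threshold, at adjusted p-values of 0.0754 and 0.053, and ZSCAN29 and ZSCAN22 passed it, at 0.0257 and 0.0395. The smallest count of a SCAN-named gene in 1 library was 21, for ZSCAN5A.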
